A study of Mus musculus with 2 samples.

Results

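The regions described here are the TCF7 ChIP-seq peaks that lie upstream of their nearest gene. By the gene starts deposited with the peaks, they lie wholly before that gene in the direction of its transcription. They were taken from the table of nearest genes, in which 293 of 779 peaks have this position. Of the remaining peaks, 229 covered the start of their nearest gene, 175 lay inside it, 81 lay downstream of it and 1 covered its end. The study asked which genes the transcription factor TCF7, also called TCF1, binds in mouse T-cell acute lymphoblastic leukemia (T-ALL). Chromatin was precipitated with a rabbit monoclonal antibody to TCF1/TCF7 in 1 library, and sonicated genomic DNA without precipitation was the input in 1 library. Both libraries have the genotype Lck-Akt2;Dlx5 transgenic and come from a T-ALL cell line of the study, DP352, which the names of the tables give and the sample labels do not. The Lck promoter, active in developing T cells, drives both a myristoylated Akt2 and the homeobox gene Dlx5 in these mice. The paper reports both CD4 and CD8 on their tumor cells, with staining shown for lines other than DP352. No library of wild-type or factor-deficient cells was used here, and the line represents 1 tumor. With 1 library on each side there is no replicate error, so every difference between groups of peaks is given as a description with no test.

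TCF7 is a high-mobility-group protein that bends DNA at a short motif beginning with CTTTG and is needed from the earliest T-cell stages onward. In Wnt signaling, β-catenin that escapes degradation enters the nucleus and joins TCF/LEF proteins, which then turn from repressing to activating their targets. In thymocytes TCF7 often binds at enhancers together with RUNX and ETS proteins, so that its sites can lie far from the gene they act on. A peak upstream of a gene may therefore mark the promoter of that gene, the promoter of another gene, or a distal element, and distance alone does not say which.

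The sequences below carry the motif results. They were read from the RefSeq copy of GRCm38 (mm10) and are written 5′ to 3′ on the strand named. Capitals mark the TCF/LEF motif, defined as CTTTGAA or CTTTGAT or CTTTGTA or CTTTGTT on either strand. The first 4 belong to the strongest members with this motif within 1000 bp of the nearest gene, at 1000 to 10000 bp, at 10000 to 100000 bp and beyond 100000 bp.
BC005537 (chr13:24800932-24800988, minus strand): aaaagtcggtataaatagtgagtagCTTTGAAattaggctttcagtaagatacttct
Eci2 (chr13:35035844-35035990, minus strand): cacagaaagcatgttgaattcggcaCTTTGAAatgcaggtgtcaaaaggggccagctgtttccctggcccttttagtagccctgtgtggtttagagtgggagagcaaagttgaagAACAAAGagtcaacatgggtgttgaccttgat
Tecta (chr9:42428309-42428365, minus strand): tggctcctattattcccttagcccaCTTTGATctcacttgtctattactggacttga
Usp25 (chr16:76765945-76766001, plus strand): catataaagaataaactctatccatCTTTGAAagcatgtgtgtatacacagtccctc

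The next 8 sequences belong to members whose nearest gene is in the Wnt, T-cell, Notch, MAPK or homeobox lists used below and that have the motif within 100 bp of the summit. They are shown because these genes are the ones a reader would look for at TCF7 peaks. The Pknox1 sequence is that of its weaker peak, of 4.23-fold enrichment. Its motif lies 90 bp from the summit, outside the called peak.
Lef1 (chr3:131106078-131106134, minus strand): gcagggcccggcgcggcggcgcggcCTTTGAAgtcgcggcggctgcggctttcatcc
Tcf7 (chr11:52314488-52314544, plus strand): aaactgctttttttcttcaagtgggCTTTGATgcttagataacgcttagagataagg
Id2 (chr12:25360098-25360154, minus strand): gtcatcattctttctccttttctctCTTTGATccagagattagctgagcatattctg
Maml2 (chr9:13607919-13607975, minus strand): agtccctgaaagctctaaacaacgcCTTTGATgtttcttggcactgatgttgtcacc
Rasa2 (chr9:96670262-96670318, plus strand): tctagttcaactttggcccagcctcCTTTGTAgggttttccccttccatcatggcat
Sos1 (chr17:80521717-80521773, plus strand): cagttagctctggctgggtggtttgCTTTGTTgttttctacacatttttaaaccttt
Pknox1 (chr17:31563681-31563737, minus strand): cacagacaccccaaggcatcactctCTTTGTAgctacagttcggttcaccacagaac
Dlx2 (chr2:71566566-71566622, plus strand): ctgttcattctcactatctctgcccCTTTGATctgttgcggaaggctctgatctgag

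The strongest members with a RUNX motif, TGTGGTT or TGCGGTT on either strand and in capitals here, are shown for the distances beyond 1000 bp.
Mir142hg (chr11:87749516-87749572, minus strand): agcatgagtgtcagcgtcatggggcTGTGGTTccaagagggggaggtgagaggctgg
Gm22213 (chr13:44903512-44903568, plus strand): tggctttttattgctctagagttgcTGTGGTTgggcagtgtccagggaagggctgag
Gm22727 (chr1:137631656-137631712, minus strand): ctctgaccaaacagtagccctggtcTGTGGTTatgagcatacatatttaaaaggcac

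The last 4 were chosen after their values were seen. Atrnl1 is the strongest member within 1000 bp, with CpG in capitals, and Trbd1 is a diversity segment of the T-cell receptor beta locus. Tbl1xr1 shows a run of the triplet CAG, here read as CTG in capitals, and Gm8882 a GGAAT repeat in capitals.
Atrnl1 (chr19:57610735-57610835, plus strand): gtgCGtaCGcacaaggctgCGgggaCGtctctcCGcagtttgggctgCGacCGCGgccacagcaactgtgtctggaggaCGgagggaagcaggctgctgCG
Trbd1 (chr6:41533005-41533125, plus strand): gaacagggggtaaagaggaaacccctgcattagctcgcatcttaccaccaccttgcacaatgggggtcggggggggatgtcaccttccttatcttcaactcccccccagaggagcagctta
Tbl1xr1 (chr3:21670883-21670984, plus strand): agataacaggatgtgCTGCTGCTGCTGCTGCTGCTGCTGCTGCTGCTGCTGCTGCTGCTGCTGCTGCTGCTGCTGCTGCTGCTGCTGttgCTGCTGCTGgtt
Gm8882 (chr6:132463710-132463810, plus strand): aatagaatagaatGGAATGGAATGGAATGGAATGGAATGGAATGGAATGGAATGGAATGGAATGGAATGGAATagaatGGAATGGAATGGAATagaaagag

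The 293 peaks lay between 1 and 609146 bp from their nearest gene, with a median of 5614 bp. Of these, 104 (35.5%) were at most 1000 bp away, 71 were at 1000 to 10000 bp, 98 at 10000 to 100000 bp and 20 beyond 100000 bp. The deposited distance runs from the lowest coordinate of the peak to the gene start, so that it counts the length of the peak for genes on the plus strand and not for genes on the minus strand. It was 4758 bp in the median for the 139 members on plus-strand genes and 6494.5 bp for the 154 on minus-strand genes. In length the members went from 159 up to 1059 bp, and their median length was 252 bp.

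The strength of a peak is its fold enrichment, the MACS2 ratio of ChIP pileup to local input at the summit, and its depth is the number of ChIP fragments stacked there. Members had folds between 2.54 and 33.9 and a median fold of 7.77. Their summits held 28 to 546 fragments, 91 in the median. At least 20-fold enrichment was found at 28 members (9.56%, 95% Wilson interval 6.69 to 13.5), where 22.1% of all peaks had it. These intervals, and the exact Poisson intervals given for fragments, cover counting error only. The median was 20.8-fold for the peaks that covered a gene start, 7.09-fold for those inside a gene and 6.76-fold for those downstream, so that the upstream members sat near the latter groups.

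Distance made little difference to the fold and more to the depth. From near to far, the median fold was 8.28, 7.60, 7.45 and 7.79, and the median number of fragments was 116, 86, 77.5 and 74.5. The median -log10 q, the significance given by the peak caller, was 30.9, 21.2, 18.1 and 16 in the same order. At least 20-fold enrichment was reached by 14, 9 and 5 members of the 3 nearer distance classes and by 0 of the 20 farthest, which allows a share of up to 15%.

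**Figure D1:**
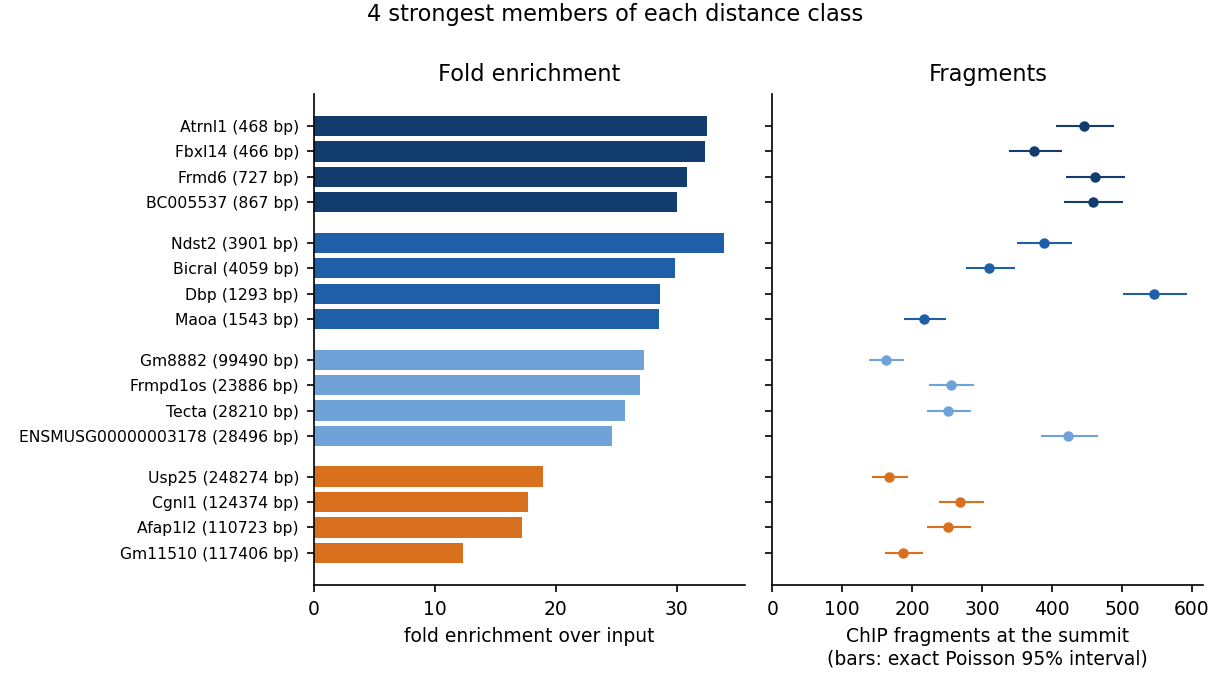
Fold enrichment over input (left, bars) and ChIP fragments at the summit (right, points with exact Poisson 95% intervals) for the 4 strongest members of each distance class, named by their nearest gene with the distance. The folds run from 28.6 to 33.9 at 1000 to 10000 bp and from 12.3 to 18.9 beyond 100000 bp, and Gm8882 pairs 27.3-fold enrichment with 162 fragments.

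Within 1000 bp, the strongest members were upstream of Atrnl1, encoding an attractin-like membrane protein, with 32.5-fold enrichment and 446 fragments (406 to 489), and of Fbxl14, encoding an F-box protein, with 32.3-fold and 375 fragments. The Fbxl14 summit also lay in an intron of Wnt5b, a gene for a Wnt ligand. Frmd6, encoding a FERM-domain protein, followed with 30.8-fold and 461 fragments, and BC005537 with 30.0-fold and 458 fragments. Of these 4, BC005537 alone had a TCF/LEF motif within 100 bp of its summit.

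At 1000 to 10000 bp the strongest peak of all members lay 3901 bp from Ndst2, which encodes an enzyme that sulfates heparan chains. It had 33.9-fold enrichment and 388 fragments (350 to 429), and its summit was 106 bp from another annotated start of the same gene. Bicral, a gene of the SWI/SNF complex family, had 29.9-fold enrichment 4059 bp away in one of its own introns, and Maoa, encoding monoamine oxidase A, had 28.6-fold at 1543 bp. Dbp, encoding a circadian PAR-bZIP factor, had the most fragments of any member, 546 (501 to 594), at 28.6-fold enrichment and 1293 bp.

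At 10000 to 100000 bp, 2 of the 4 strongest peaks lay beside the start of a gene other than the deposited one. The peak given to Tecta, 28210 bp away, had 25.7-fold enrichment and 251 fragments and its summit was 111 bp from a start of Tbcel. The peak given to ENSMUSG00000003178 at 28496 bp had 24.6-fold enrichment and lay 207 bp from a start of Mical3. By contrast, the peak given to Frmpd1os, with 27.0-fold enrichment, lay in an intron of Frmpd1 and 29082 bp from the closest coding start, and that of Gm8882, with 27.3-fold, lay 99626 bp from any coding start.

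Beyond 100000 bp, Usp25, encoding a ubiquitin protease, had the strongest peak, 248274 bp away with 18.9-fold enrichment and 167 fragments (143 to 194). Cgnl1 had 17.7-fold and 269 fragments at 124374 bp, and its summit was 143 bp from a start of Tcf12, which encodes the E-protein HEB of thymocytes. Afap1l2 had 17.2-fold and 251 fragments at 110723 bp, with its summit 106 bp from a start of Ablim1. Gm11510 had 12.3-fold enrichment at 117406 bp, in an intron of Msi2.

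The members at the extremes of distance had folds from 3.5 to 18.9, on both sides of the median of all members. By the deposited distance, the nearest members were those of Cfap221 at 1 bp with 9.49-fold enrichment, the pseudogene Gm4925 at 2 bp with 5.39-fold, Cpsf4l at 8 bp with 6.16-fold, and Atg13, an autophagy gene, at 11 bp with 6.31-fold. Akna and Cmss1 shared the next place at 21 bp, with 11.8-fold and 8.57-fold. All of these are minus-strand genes. On plus-strand genes the deposited distance, which includes the peak length, started at 216 bp. From the near edge of its peak, the plus-strand gene D6Wsu163e, named after its value was seen, was also 1 bp away. At the other end, Cntn5, a neuronal contactin, was given peaks at 609146 bp and 492182 bp, with 4.18-fold and 9.28-fold enrichment. Between these and Usp25 lay Tbl1xr1 at 405819 bp with 8.49-fold and Id2 at 263938 bp with 6.5-fold. Cntn6, another contactin, followed at 235790 bp with 9.25-fold, then Gm26669 at 212646 bp with 4.95-fold and Gm9869 at 174751 bp with 3.5-fold.

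**Figure D2:**
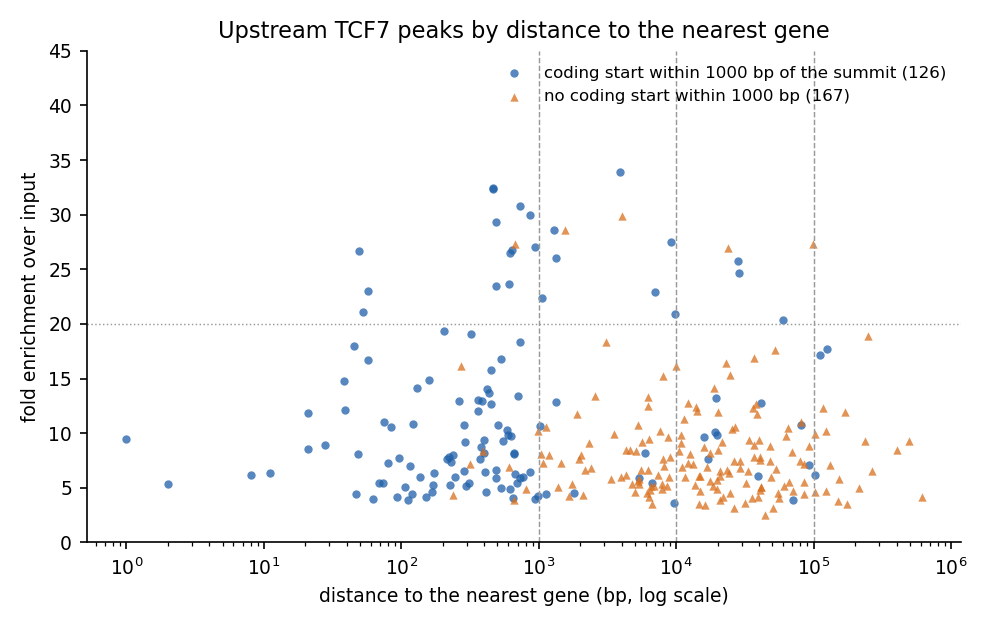
Fold enrichment over input against the distance to the nearest gene (log scale) for the 293 members. Circles are members with an annotated coding start within 1000 bp of the summit and triangles those without, the dashed lines part the 4 distance classes, and the dotted line is 20-fold. Beyond 1000 bp, 10 of the 14 points above the dotted line are circles.

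Some members that were far from their deposited gene were at the start of another transcript. In the GENCODE vM21 annotation, 126 of the 293 summits (43.0%, 37.5 to 48.7) had a start of a protein-coding gene within 1000 bp. Over all peaks it was 475 of 779 (61.0%), a higher share than among the members. It was 97.8% for peaks that covered a gene start, 63.4% for those inside a gene and 17.3% for those downstream. The following counts are of the members. The share was 95 of 104 in the nearest class, 15 of 71 and 13 of 98 in the middle classes and 3 of 20 in the farthest. Of the 189 members beyond 1000 bp, 31 were at such a start, which belonged to another gene in 25 cases and to the deposited gene in 6. Some of the 31 were placed beyond 1000 bp because the deposited distance counts the peak length on plus-strand genes. The near edge of the peak lay 235 bp from Dbp (28.6-fold), 549 bp from 1700058P15Rik (26.0-fold) and 728 bp from Fbxw7 (10.6-fold). The 31 are thus not all far from their deposited gene. The median fold of the 31 was 10.8, and 10 of them (32.3%, 18.6 to 49.9) reached 20-fold, against 7.15-fold and 4 of 158 (2.53%, 0.989 to 6.33) for members beyond 1000 bp with no start close by.

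The genes at these 25 starts were named after the values were seen. Among the stronger ones, the peak given to Gm20613 had 27.5-fold enrichment 149 bp from Cdca7l, and that given to Gm13546 had 23.0-fold 532 bp from Cytip, a cytohesin partner of lymphocytes. The peak of ENSMUSG00000077958 had 20.4-fold enrichment 34 bp from Greb1. Chromatin genes were there too, with Ezh1, encoding a Polycomb methyltransferase, 812 bp from the 13.2-fold peak given to Ccr10, and Chd8, encoding a remodeler that binds β-catenin, 287 bp from the 10.1-fold peak given to Gm23758. The 4 members of at least 20-fold beyond 1000 bp with no coding start close by were those of Bicral, Maoa, Gm8882 and Frmpd1os.

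Summits also lay in gene bodies, at shares near or below those of all peaks. Of the 293 summits, 159 were intergenic (54.3%, against 35.7% of all peaks) and 94 in an intron (32.1 against 35.6%). A further 18 were in a UTR (6.14 against 19.8%) and 6 in a coding exon (2.05 against 2.70%). An exon of a noncoding transcript held 16 (5.46 against 6.29%). Of the members beyond 1000 bp, 85 of 189 lay inside a protein-coding gene other than the one they were given to. In GENCODE vM21 some summits lay inside the very gene they were given to, as those of Ndst2 and Bicral did. The annotation behind the deposited gene starts is not named. Starts on both strands lay within 1000 bp of the summit of 9 members (3.07%, against 9.76% of all peaks). All 9 were within 1000 bp of their deposited gene. Of all the members, 0 overlapped an element that RefSeq annotates as functional, which allows a share of up to 1.02%.

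The nearest gene was protein coding for 192 members, that is, for 92 of 104 in the nearest class, 38 of 71, 48 of 98 and 14 of 20. The rest were given to 21 antisense genes, 17 processed pseudogenes, 11 miRNA genes, 9 lincRNA genes, 9 small nuclear RNA genes, smaller classes, and 9 identifiers without a gene in GENCODE vM21. Among the miRNA genes, chosen after their values were seen, Mir210, the hypoxia-induced miRNA, had 8.37-fold enrichment 393 bp away and Mir181c, of a family active in thymocytes, had 8.46-fold 4325 bp away. In all, the members named 185 protein-coding genes, 0.843% of those annotated.

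Pathway lists gave a few members each, 21 of 634 listed genes in all, where 0.843% of all protein-coding genes were nearest to a member. Peaks of other positions were nearest to 6 genes of the Wnt list, 10 of the chromatin list and 4 of the PI3K and Akt list. They were nearest to 4 of the Ras and MAPK list, 1 of the Notch list and 0 of the homeobox list. From the Wnt list, 3 of 67 genes were nearest to a member. Frat1, encoding an inhibitor of GSK3 in the Wnt pathway, had 26.5-fold enrichment and 455 fragments (414 to 499) at 615 bp. Lef1, encoding the TCF/LEF partner of TCF7 and itself a Wnt target, had 8.45-fold and 94 fragments (76.0 to 115) at 4573 bp, with TCF/LEF motifs at 2 places near the summit, of which the one nearer the summit is shown above. Tcf7 itself had a peak of 3.56-fold and 80 fragments (63.4 to 99.6) at 31362 bp, with 1 motif. The Frat1 summit was 102 bp from the gene's start and had no motif, so the strongest peak of this list was the one without it.

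The T-cell list held Tcf7 and Id2, 2 of 61 genes. Id2, which restrains E-proteins, had 6.5-fold enrichment and 62 fragments (47.5 to 79.5), with a motif. Outside the lists, Trbd1 had 16.2-fold enrichment and 95 fragments (76.9 to 116) at 270 bp, in a 242 bp stretch of the T-cell receptor beta locus (chr6:41532932-41533173), with neither a TCF/LEF nor a RUNX motif within 100 bp of the summit. Its fragments were fewer than those of the 16.1-fold peak of Notch3 (186) or the 16.7-fold peak of Hdac1 (279). The Notch list gave 3 of 41 genes. Notch3, encoding a receptor, had its peak at 9893 bp. Fbxw7, the ubiquitin ligase subunit that removes active Notch, had 10.6-fold and 263 fragments at 1025 bp, and Maml2, a Notch coactivator, had 7.25-fold and 42 fragments at 12140 bp, with a motif.

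From the Ras and MAPK list, 4 of 62 genes were nearest to a member. Nf1, encoding the Ras inhibitor neurofibromin, had 7.61-fold enrichment and 110 fragments at 371 bp. Junb, encoding an AP-1 factor, had 8.06-fold and 245 fragments at 1030 bp. Rasa2, a further Ras inhibitor, had 11.7-fold and 133 fragments at 38448 bp, and Sos1, a Ras activator, had 5.03-fold and 46 fragments at 41224 bp. The farther Rasa2 and Sos1 peaks had a TCF/LEF motif and the nearer Nf1 and Junb peaks did not.

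The chromatin list gave 4 of 83 genes. Hdac1 and Hdac7, encoding histone deacetylases, had 16.7-fold enrichment at 57 bp and 8.35-fold with 159 fragments at 5084 bp. Kmt2a, the histone methyltransferase rearranged in human leukemia, had 8.11-fold and 68 fragments at 48 bp, and Chd3, a remodeler, 4.64-fold and 42 fragments at 414 bp. The remaining lists were thinner. Pknox1, of the homeobox list (2 of 50), had peaks of 18.3-fold at 728 bp and 4.23-fold at 987 bp. The TCF/LEF motif was found at the weaker Pknox1 peak only. Dlx2, of the same homeobox family as the transgene Dlx5, had 4.89-fold and 67 fragments at 19746 bp. Mcm5, of the replicative helicase, had 7.30-fold at 1077 bp in the cell cycle list (1 of 71), and Polr2a, the large subunit of RNA polymerase II, 14.8-fold and 367 fragments (330 to 407) at 38 bp in the list on ribosomes and translation (1 of 71). The list on cholesterol synthesis gave 2 of 40, among them Tbl1xr1, a corepressor subunit, and the lists on p53, on PI3K and Akt, on B cells and on myeloid cells gave 0 of 36, 32, 14 and 14.

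In all, 9 genes were given to 2 members. Besides Pknox1 and Cntn5, these were Rfx5, Slc4a8, Chst15, Atp2a3, Lmod3, Pisd-ps1 and 1700058P15Rik. The Rfx5 pair, at a gene for a regulator of MHC class II, had 9.40-fold and 8.03-fold enrichment at 401 and 1181 bp. Both Chst15 peaks, 4.12-fold and 6.0-fold at 39094 and 48671 bp, lay in Fgfr2. The 1700058P15Rik pair lay in a UTR of Vasp with 26.0-fold and 4.24-fold enrichment. The Pisd-ps1 pair stood out in depth, since 481 and 184 fragments came with 11.7-fold and 3.88-fold enrichment. Members that share a gene or lie close together are not independent of each other.

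The TCF/LEF motif was found within 100 bp of the summit at 60 of 293 members (20.5%, 16.3 to 25.5), where 15.7% of all peaks had it and 10.8% of 32851 RefSeq promoter windows of the same 201 bp. The motif share was 7.86% for peaks that covered a gene start, 14.3% for those inside a gene and 23.5% for those downstream, so it was not particular to the upstream members. In windows 2000 bp from the summits of the 293 members the motif was found at 44 (15%, 11.4 to 19.6). Over all peaks such shifted windows had it at 18.4%, above the 15.7% at the summits. The shifted share was 23.1% for peaks that covered a gene start, 17.7% for those inside a gene and 18.5% for those downstream. Of the single sites in the summit windows of the members, 23 read CTTTGAA, 22 CTTTGAT, 11 CTTTGTA and 16 CTTTGTT. A match to 7 letters describes the sequence and does not show that TCF7 is bound at it.

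Among the members, the difference from the shifted windows was found away from coding starts. There the motif was at 42 of 167 summits (25.1%, 19.2 to 32.2) and in 25 shifted windows (15%, 10.4 to 21.2). At coding starts it was at 18 of 126 summits (14.3%) and in 19 shifted windows (15.1%). By distance from near to far the shares were 15.4, 21.1, 21.4 and 40.0% at the summit and 16.3, 14.1, 16.3 and 5.0% in the shifted windows. The last class counts 8 of 20 summits (21.9 to 61.3) and 1 shifted window (0.888 to 23.6). In the 167 members away from starts, the widths of 50 and 250 bp on each side also gave more at the summit, 13.8 against 6.59% and 44.9 against 29.9%.

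**Figure D3:**
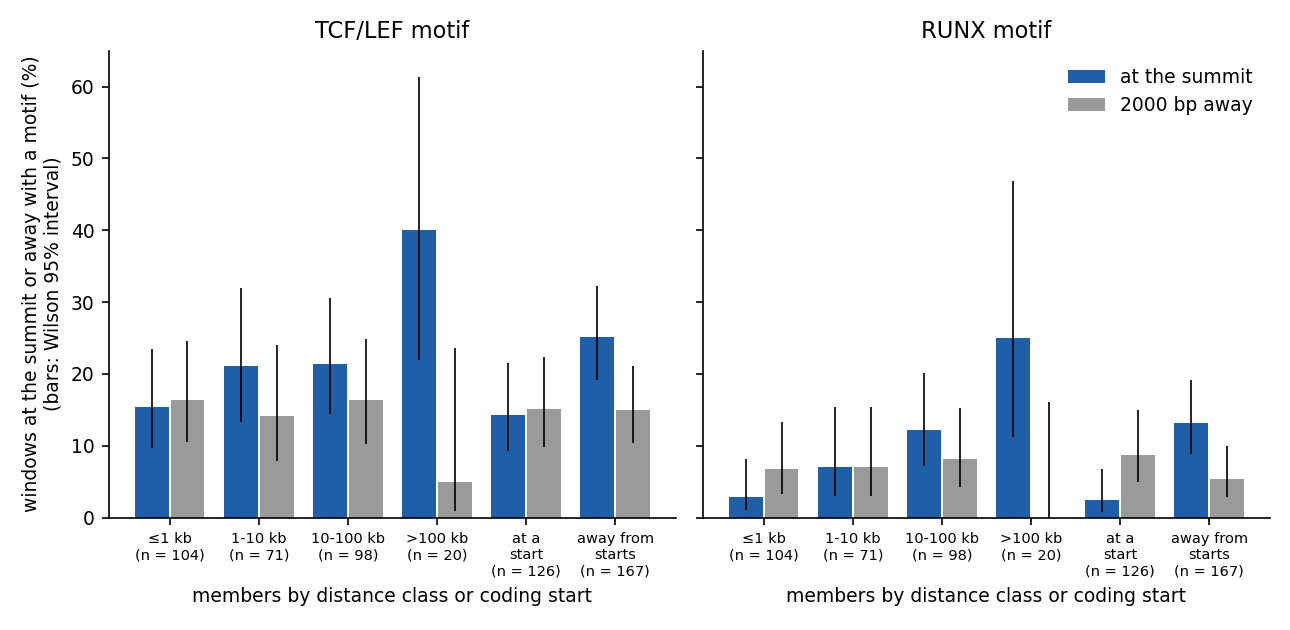
Share of members with a TCF/LEF motif (left) or a RUNX motif (right) in the 201 bp around the summit (blue) and in a window 2000 bp away (grey), by distance class and by whether a coding start lay within 1000 bp, with Wilson 95% intervals. The TCF/LEF share at the summit is 14.3% at a start and 25.1% away from starts, and the widest intervals are those of the 20 members beyond 100000 bp.

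The RUNX motif was at 25 of 293 summits (8.53%, 5.85 to 12.3), where 6.68% of all peaks and 4.56% of the promoter windows had it, and in 20 shifted windows (6.83%). Away from coding starts it was at 22 of 167 summits (13.2%, 8.86 to 19.1) and in 9 shifted windows (5.39%, 2.86 to 9.92), and at coding starts at 3 of 126 summits (2.38%, 0.813 to 6.77) and in 11 shifted windows (8.73%, 4.94 to 15), so that it was rarer at the summit there, where the TCF/LEF counts were nearly level. From near to far it was at 3, 5 and 12 summits of the 3 nearer classes and in 7, 5 and 8 shifted windows. Beyond 100000 bp it was at 5 of 20 summits and in 0 shifted windows, which allows up to 15%. Among peaks of other positions, RUNX was at 0.873% of those that covered a gene start and 8.57% of those inside a gene. Downstream peaks had it at 12.3% of summits and in 3.70% of their shifted windows.

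Both motifs together were found within 100 bp of the summit at 10 members, and all 10 lay beyond 1000 bp and away from coding starts. Few could lie at coding starts, where RUNX was at only 3 of 126 summits, against 22 of 167 away from them. How many of all peaks or of the shifted windows held both motifs was not counted. The strongest of the 10 was that of Eci2, encoding an enzyme of fatty acid oxidation, with 9.61-fold enrichment and 119 fragments at 8714 bp, whose sequence above holds the letters of the RUNX motif between its capitals. Among the others, named after their values were seen, the peak given to Trib1, a pseudokinase gene, had 4.67-fold enrichment at 123652 bp. Il6st, which encodes the gp130 receptor chain, had 3.13-fold with 52 fragments at 50231 bp.

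**Figure D4:**
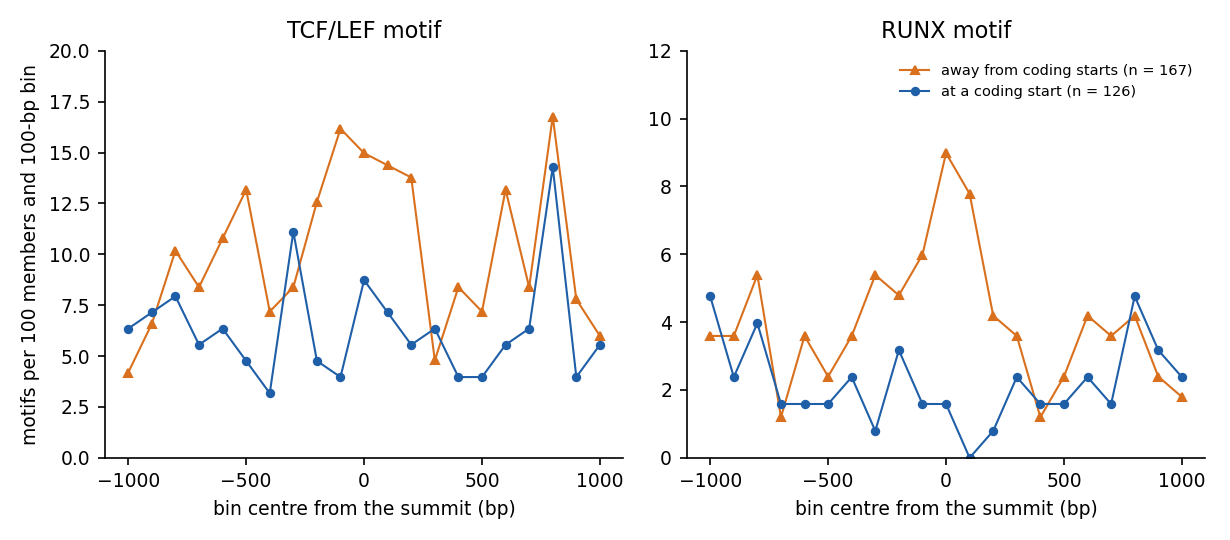
Motifs per 100 members in bins of 100 bp, by the distance of the bin centre from the summit, for TCF/LEF (left) and RUNX (right), with members away from coding starts as triangles and those at a coding start as circles. For RUNX away from starts the central bin (8.98) is above all 18 bins from 200 bp outward (1.20 to 5.39), and for TCF/LEF the central bin (15) is above their median (8.38) and below the highest of them (16.8).

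Members with the TCF/LEF motif had a lower median strength than those without it. It was 6.16-fold and 68.5 fragments, against 8.18-fold and 95 fragments, and beyond 1000 bp it was 5.81 against 8.03-fold. Away from coding starts, in strength classes set after the values were seen, 23 of 61 members below 6-fold had the motif (37.7%, 26.6 to 50.3), 14 of 68 at 6 to 10-fold (20.6%, 12.7 to 31.6) and 5 of 38 at 10-fold or more (13.2%, 5.75 to 27.3). The shifted windows of these classes had 13.1, 19.1 and 10.5%. At coding starts the TCF/LEF shares of the same classes were 15.2, 16.7 and 12.3%, with 33, 36 and 57 members. The RUNX motif away from coding starts was at 11 of 61 (18%), 9 of 68 (13.2%) and 2 of 38 (5.26%), and in 0, 4 and 5 of their shifted windows, so that at 10-fold or more it was less frequent at the summit than in the shifted windows (13.2%).

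Strong members with the motif that lay beyond 1000 bp from their deposited gene were few. Beyond 1000 bp, 7 members had it at 10-fold enrichment or more, and besides Tecta, Usp25, Cgnl1 and Rasa2 these were the peaks given to Gm25379 (14.2-fold, in an intron of Galnt7), Gm5129 (12.3-fold, in an intron of Dnajb6) and ENSMUSG00000092676 (12-fold, in a GGAAT repeat). Of the 7, the Tecta and Cgnl1 summits were at a start of another gene, and 5 were away from coding starts.

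For 11 further motifs searched on both strands in the same windows, the count at the summits is given first and that in the shifted windows second. SP1/KLF, GGGCGGG, was at 24 summits (8.19%, 5.57 to 11.9) and in 9 shifted windows (3.07%), and ETS, CCGGAAG, at 7 and in 2. The RefSeq promoter windows held these at 22.7% and 7.55%. All peaks had them at 13.9% and 4.88%, above the 8.19% and 2.39% of the members. The E-box CAGCTG was at 42 and 38, the NFY letters CCAATCA or CCAATCG or CCAATGA or CCAATGG at 12 and 14, AP1, TGANTCA, at 10 and 16. The GATA-factor letters AGATAAG were at 4 and 6. YY1, AAGATGGCG, was at 1 and 1, CRE, TGACGTCA, at 2 and 0, CTCF at 4 and 1, NRF1 at 1 and 1, and ZBTB33 at 0 and 0. In promoter windows the E-box was at 11.9%, NFY at 13.9, AP1 at 5.39, the GATA factors at 1.80, YY1 at 1.19, CRE at 1.61, CTCF at 0.685, NRF1 at 3.98 and ZBTB33 at 0.420%. Over all peaks these motifs, in the same order, were at 13.5, 5.78, 3.47, 1.67, 1.41, 0.899, 0.770, 0.899 and 0%. At the 33 members with a CAG run, described next, the E-box was at 4 summits and in 7 shifted windows.

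A run of at least 5 CAG triplets on either strand lay within 100 bp of the summit at 33 members (11.3%, 8.13 to 15.4), where 8.22% of all peaks and 0.107% of promoter windows had one. The share was 10.9% for peaks inside a gene, 11.1% for those downstream and 1.31% for those that covered a gene start. In the shifted windows there were 0 of 293, which allows up to 1.02%. The run was at 5 of 104 members in the nearest class, 7 of 71, 17 of 98 and 4 of 20. The longest had 32 triplets, at the 10.5-fold peak given to Gm22213 in an intron of Jarid2, and Tbl1xr1 had 24 and Fbxw7 9. Gjb6 with 25, Nck2 with 24 and Sp7 with 15 were also picked out, after their values were seen. The median enrichment of the 33 was 8.87-fold, and 1 of them had a TCF/LEF motif, against 59 of the other 260.

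A GGAAT tandem repeat of at least 15 bp lay at 8 members, of 9 in all peaks, and in 0 shifted windows. All 8 were beyond 1000 bp and away from coding starts, with a median enrichment of 13.6-fold and 6.0 to 27.3-fold overall. After Gm8882 the strongest, named after their values were seen, were those given to Gm23186 with 17.6-fold and 302 fragments, Gm17644 with 16.4-fold and Olfr854, an olfactory receptor gene, with 15.3-fold. In the median, 72.6% of their 201 bp was marked as repeat in the reference, against 11.4% over all members. How well reads map to such repeats, in ChIP and in input, was not tested. Without the 30 members away from starts that had either repeat, the TCF/LEF share there was 41 of 137 (29.9%, 22.9 to 38.1), against 20 shifted windows (14.6%).

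**Figure D5:**
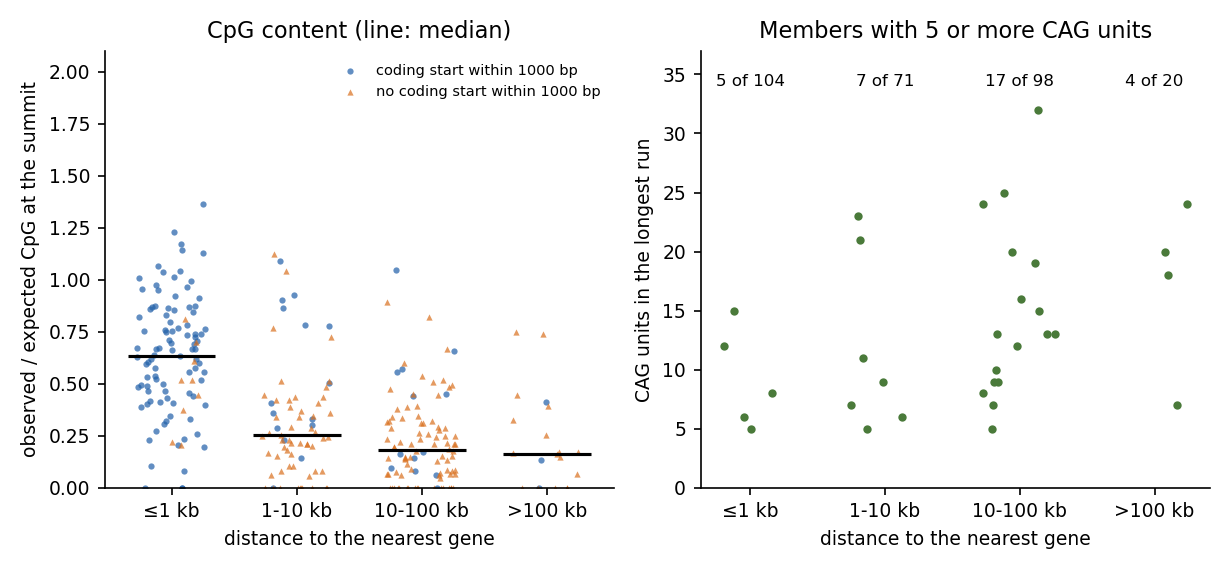
Left, observed over expected CpG in the 201 bp around each summit by distance class, with circles for members at a coding start, triangles for the others and a line at the median. Right, the number of CAG triplets in the longest run of each of the 33 members with at least 5, with their count of all members of the class above. The CpG median falls from 0.635 to 0.165 from the nearest to the farthest class.

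Base composition changed with distance as well. The median GC content was 54.7, 50.2, 50.7 and 44.5% from near to far, and the ratio of observed to expected CpG was 0.635, 0.253, 0.180 and 0.165. The shifted windows of the same classes had a median GC content of 47.8, 46.8, 46.3 and 41.0% and CpG ratios of 0.254, 0.182, 0.174 and 0.205, so that GC content was also lowest around the farthest members. By place instead of distance, the CpG ratio was 0.60 at coding starts and 0.211 away from them, while the peaks that covered a gene start reached 0.800 with 61.2% GC. Among single members, the Atrnl1 window had 70.6% GC and a ratio of 0.846, and that of Ndst2 76.6% and 0.862, whereas the Usp25 window had 42.8% and 0.447.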

How the data were processed

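One TCF7 ChIP library and 1 input library were analysed from the peak list and the table of nearest genes. Per the submitters' processing notes and the methods, the authors used Bowtie2 for alignment, on mm10, and MACS2 for peaks, with versions that are not given in the sources. The deposited pileup is a coverage signal at the summit that the authors scaled to the input library. The fold enrichment is the authors' ratio of that pileup to local input, and each q-value was deposited as its -log10. Values were not changed here.

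The headers of the nearest-gene table are out of step with its columns, which were read by content. For all 779 peaks the deposited distance equals peak start minus gene start. Pileups were divided by their common step of 0.522, which gave fragments, whole within 0.00987, and 1.92 ChIP fragments per input fragment. The number of fragments at a summit sets the precision of a peak, and the total read depth of the libraries was not used here. Starts, gene types and UTRs came from GENCODE vM21, and sequences from RefSeq GRCm38, whose positions fit the mm10 files. Motifs were counted 100 bp on each side of the summit, with shifted windows 2000 bp away that avoid peaks. Shares have Wilson intervals and fragments exact Poisson intervals at the 95% level. A count of 0 allows up to 3 counts. Scripts ran under Python 3.11.15 (pysam 0.24.0, numpy 2.4.6, pandas 2.3.3, scipy 1.17.1), and were tested on simulated data.

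The genes named are those nearest to the 4 strongest members of each distance class, the 5 nearest and 8 farthest members, listed genes, genes given to 2 members, and members beyond 1000 bp with a TCF/LEF motif and at least 10-fold enrichment. Any other gene is marked in the text as picked afterwards. The members, the 13 gene lists and the motifs were chosen with earlier results of these data known. Some results on single genes are not reported here. No test was run, since each group has 1 library.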

Additional observations from a re-analysis of the deposited data

How the results depend on the processing

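There were no replicates, so no library could be left out. No paired analysis was possible because each group has 1 library. Of 28 alternatives, 17 stayed within the 95% interval of the value reported, or within 1.5 times it for the count of listed genes, and 11 did not. Those 11 mostly change what is counted. The share of members in the first distance class, 35.5%, was 24.9% with an end at 500 bp and 47.4% at 5000 bp. The share with a coding start close by, 43.0%, was 34.5% within 500 bp and 53.9% within 5000 bp. The TCF/LEF share, 20.5%, was 11.6% at 50 bp on each side, 36.9% at 250 bp, 13.3% with CTTTGAA or CTTTGAT alone, 12.6% at 10-fold enrichment or more and 14.3% at coding starts. The RUNX share, 8.53%, was 4.78% at 50 bp and 17.4% at 250 bp. Shifted windows of those widths held TCF/LEF at 7.17% and 32.4% and RUNX at 2.39% and 15%. Without members holding a CAG run or GGAAT repeat, an alternative chosen after seeing the data, the TCF/LEF share was 23.0%. Weak peaks limit what can be said, since 55 members had a -log10 q under 10. Sites far from a gene cannot be assigned to it by distance, and 1 line with 1 library allows no statement about other tumors.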
